A study of Mus musculus with 6 samples.

Results

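This account follows 9 genes of leukocyte adhesion among the 55416 genes counted in the series: the adhesion ligands Icam1 and Icam2, the integrin chains Itgal, Itgb2, Itga4, Itgb1 and Itgb7, the selectin ligand Selplg and the hyaluronan receptor Cd44. They were chosen by name, with earlier results of these data known, and found by Ensembl identifier. Each of the 9 matched 1 gene and passed the low-count filter, as did 14926 genes in all. RNA was sequenced from the CD3+ T cell fraction of C57BL/6 spleens, with 3 libraries from mice given an isograft (tissue of their own strain) and 3 from mice given an allograft (tissue of a genetically different donor). All 6 are labelled wild type, and cells of both groups were kept in a serum-supplemented medium. Neither the organ, the donor's strain nor any age or time is given in the sources used here. Nothing in the labels ties the libraries to separate mice, and p-values therefore reflect only the spread among these libraries, part of which may be technical.

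Integrins are pairs of an alpha and a beta chain that join a cell to ligands on other cells or in the matrix, and they bind strongly only after signals inside the cell open them. On T cells, LFA-1 (the Itgal and Itgb2 chains) binds the ICAM proteins, the integrin of Itga4 and Itgb1 (VLA-4) binds VCAM-1 and fibronectin, and the integrin of Itga4 and Itgb7 binds MAdCAM-1 of gut vessels. PSGL-1, the product of Selplg, is a ligand of the selectins with which T cells roll on vessel walls. CD44 binds hyaluronan and is used as a marker of activated and memory T cells.

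Library totals ran from 30066137 to 37821738 counts, and the 9 genes held between 473 and 33382 counts in a library. T cell markers were abundant in both groups. B cell markers were too, with a summed level of 2853 to 3091 CPM (counts per 1000000 of the scaled library total) in isograft and 2681 to 2815 CPM in allograft libraries, against 2329.5 to 2435 and 1821 to 2039 CPM for T cell markers. Of the 15 B cell markers 4 rose and 8 fell, and of the 16 T cell markers 5 rose and 9 fell. Among all genes tested 28.7% rose and 29.1% fell. Single markers moved more than the sums, as in 4 picked after their values were seen. Of the B cell markers, mean Fcer2a rose from 52.8 to 378 CPM and Ralgps2 fell from 166 to 62.5 CPM. Of the T cell markers, Cd5 rose from 30.8 to 80.4 CPM and Cd4 fell from 211 to 71.2 CPM. B cells also express most of the 9 genes, and the part of B cells in the values below was not tested. In bulk RNA, fewer cells of a type and less RNA per cell cannot be told apart.

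The 9 genes split by direction. In allograft libraries Icam1, Cd44, Itgb1, Itgal and Itgb2 rose, and Itgb7, Itga4, Icam2 and Selplg fell. All 9 passed the threshold, an adjusted p under 0.05 by edgeR's quasi-likelihood test, where 57.8% of all genes tested passed, 28.7% upward and 29.1% downward. The 2 groups did not overlap for any of the 9, as was the case for 63.3% of all genes tested. Because the 9 were chosen with earlier results of these data known, these counts do not speak for adhesion genes at large. The changes were of unequal size. Icam1 and Cd44 rose by at least 2-fold, as did 10.1% of all genes, and Itgb7 fell by at least 2-fold, as did 10.1% of all genes.

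**Figure D1:**
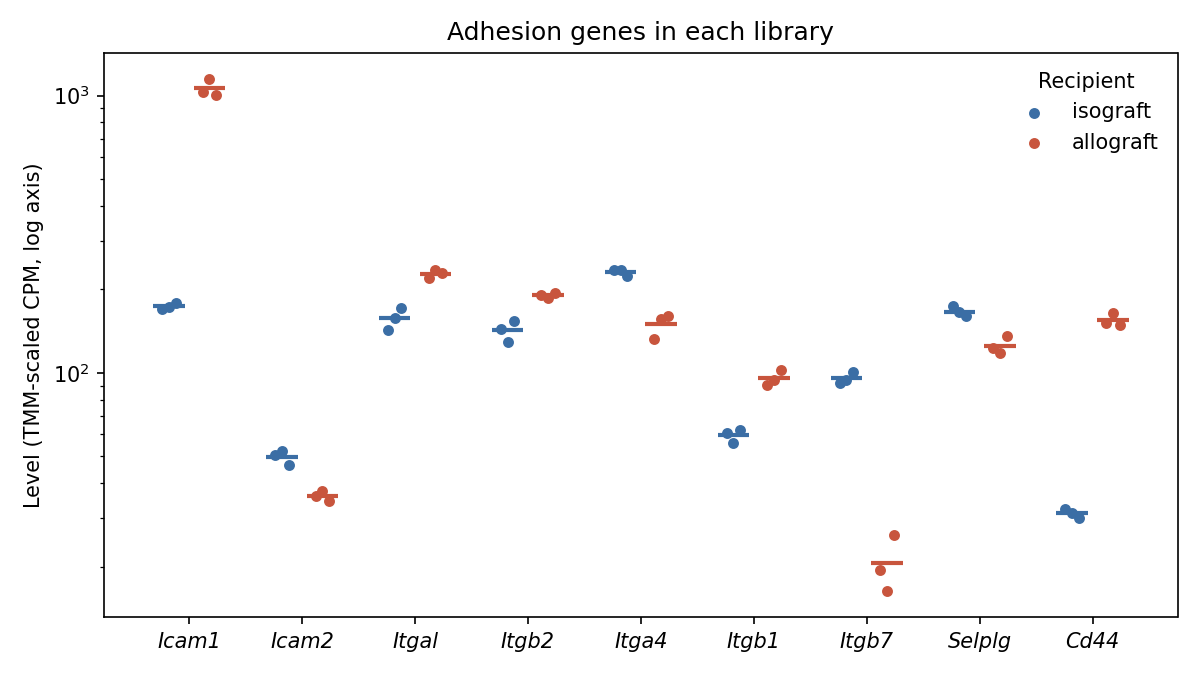
Level of each gene in every library on a log axis, in TMM-scaled CPM (TMM is a scaling of library totals), with points for the 3 isograft and 3 allograft libraries and lines at group means. Groups are separate for all 9 genes, with the widest gaps at Icam1, Cd44 and Itgb7.

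Icam1 encodes ICAM-1, a ligand of LFA-1 that antigen-presenting cells, endothelium and activated lymphocytes display. It lies on chromosome 9, 20927281 to 20940113 (GRCm39, plus strand). Its level was 169.6, 173 and 179 CPM in the isograft libraries and 1027, 1151 and 1009 CPM in the allograft libraries. Every allograft library stood far above every isograft library, and spread within groups was small. The means were 174 ± 4.98 and 1062 ± 77.4 CPM (SD, n = 3), which is a 6.11-fold ratio and a log2 fold change of 2.61 ± 0.08 (SE, adjusted p = 1.6e-15). Only 154 of the 14926 genes had a larger log2 fold change. Of the exonic bases of Icam1, 11.7% are shared with Gm47079 on the other strand, which held 13 counts over all libraries.

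Because Icam1 rose most among the 9, the 250 bases before its RefSeq start are shown, together with those of Cd44 and Itgb7, the genes with the other changes of at least 2-fold. They come from RefSeq's GRCm38.p6, an older build than that of the gene positions given here, and are printed 5′ to 3′ on each gene's own strand. Capitals mark matches on either strand to an NF-kB motif, GGNNNTTCC. The Icam1 stretch is chr9:21015690-21015939 (plus strand), the Cd44 stretch chr2:102901666-102901915 (minus strand) and the Itgb7 stretch chr15:102231936-102232185 (minus strand).
Icam1: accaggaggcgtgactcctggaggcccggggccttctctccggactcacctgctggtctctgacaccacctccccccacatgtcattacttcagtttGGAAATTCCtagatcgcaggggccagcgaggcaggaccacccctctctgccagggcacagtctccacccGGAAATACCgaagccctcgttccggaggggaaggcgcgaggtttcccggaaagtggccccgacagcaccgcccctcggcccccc
Cd44: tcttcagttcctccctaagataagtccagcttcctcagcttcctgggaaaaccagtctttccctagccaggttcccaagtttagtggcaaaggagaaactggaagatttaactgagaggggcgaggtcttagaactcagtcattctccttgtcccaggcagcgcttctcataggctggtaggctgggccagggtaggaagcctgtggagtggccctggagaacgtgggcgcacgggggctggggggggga
Itgb7: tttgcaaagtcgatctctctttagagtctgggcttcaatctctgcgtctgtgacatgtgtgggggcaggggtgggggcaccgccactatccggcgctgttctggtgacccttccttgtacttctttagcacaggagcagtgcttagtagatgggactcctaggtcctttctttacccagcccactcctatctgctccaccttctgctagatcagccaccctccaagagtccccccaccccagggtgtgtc
The Icam1 stretch holds 2 matches. GGAAATTCC lies 153 to 145 bases before the start and reads as a match on both strands, and GGAAATACC lies 84 to 76 bases before it. Among 32851 stretches of the same length in the table, 15.7% hold at least 1 match. The Icam1 stretch also holds TTCCCGGAA, a match to the STAT motif TTCNNNGAA found in 7.02% of stretches, which does not overlap the NF-kB matches. Neither the Cd44 nor the Itgb7 stretch holds a match to the NF-kB or STAT letters. The AP-1 motif TGANTCA, which 6.75% of stretches hold, has no match in any of the 3 stretches shown, Icam1 included. Of further motifs searched on both strands, the Cd44 stretch holds 1 match to the NFAT letters GGAAAA, which 20.4% of stretches hold. The Icam1 stretch holds 1 match to the SP1 letters GGGCGG, which 32.7% of all stretches in the table hold. None of the 3 stretches shown holds the RUNX letters TGTGGT, present in 14.0% of stretches in the table. Likewise no match was found in these 3 stretches to a TATA box written as TATAAA, present in 12.4%. The table had stretches for 5 of the 9 genes. Of the other two, Itgb1 holds 1 match to the NF-kB letters (GGGCTTTCC, 164 to 156 bases before the start) and Itga4 holds 0. These matches describe the letters and show no binding.

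Icam2 encodes ICAM-2, a second ligand of LFA-1, carried by resting lymphocytes and endothelium, and it moved the other way. It lies on chromosome 11, 106268482 to 106278901. Its level was 50.4, 52.2 and 46.6 CPM in the isograft libraries and 36.1, 37.6 and 34.6 CPM in the allograft libraries. All allograft values were below all isograft values, by a modest margin. The means of 49.7 ± 2.90 and 36.1 ± 1.50 CPM (SD, n = 3) gave a log2 fold change of -0.46 ± 0.08 (SE, adjusted p = 6.6e-05). Of the endothelial genes, Emcn was listed at 0 in all 6 libraries, and Cdh5, Tek and Vwf stayed under 1 CPM in each, while Kdr, a VEGF receptor, was at 21.8 CPM on average in isograft and 24.9 CPM in allograft libraries and did not pass (adjusted p = 0.15). Pecam1, which lymphocytes also express, made most of that list's sum, 243 CPM on average in isograft and 108 CPM in allograft libraries.

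The chains of LFA-1 rose together and by little. Itgal, the alpha L chain (chromosome 7, 126895432 to 126934310), stood at 143, 157 and 172 CPM in isograft and at 221, 234 and 229 CPM in allograft libraries. Itgb2, the beta chain that LFA-1 shares with the myeloid integrins (chromosome 10, 77366086 to 77401542), stood at 144, 129 and 154 CPM in isograft and at 191, 187 and 194 CPM in allograft libraries. For both genes the lowest allograft library lay above the highest isograft library, and the isograft libraries were the more spread. The log2 fold changes were 0.54 ± 0.08 for Itgal (SE, adjusted p = 4.5e-06) and 0.42 ± 0.07 for Itgb2 (adjusted p = 6.6e-05). Both are near the 75th percentile of all genes tested, 0.47. Scaling by total counts alone lowered them to 0.32 (adjusted p = 0.00068) and 0.20 (adjusted p = 0.025).

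Of the alpha 4 integrin chains, Itga4 and Itgb7 fell and Itgb1 rose. Itga4, the alpha 4 chain (chromosome 2, 79085770 to 79163467), was at 235, 235 and 224 CPM in isograft and at 132, 157 and 160.5 CPM in allograft libraries. Its allograft values were all lower, allograft replicate 1 the lowest, and the log2 fold change was -0.63 ± 0.08 (SE, adjusted p = 8.3e-07). Itga4 shares 8.04% of its exonic bases with Cerkl on the other strand, which held 257 counts over all libraries against 37681 for Itga4.

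The beta chains that pair with alpha 4 went in opposite directions. Itgb1, the beta 1 chain shared by VLA-4 and many matrix-binding integrins (chromosome 8, 129412135 to 129459681), was at 61.0, 55.7 and 62.3 CPM in isograft and at 90.4, 93.9 and 102 CPM in allograft libraries. It rose by 0.68 ± 0.08 on the log2 scale (SE, adjusted p = 2.8e-07), and groups did not overlap. Itgb7, the beta 7 chain of the gut-homing integrin (chromosome 15, 102124430 to 102140379), was at 91.8, 94.7 and 101 CPM in isograft and at 19.5, 16.3 and 26.1 CPM in allograft libraries. Its mean fell 4.64-fold, from 95.8 ± 4.62 to 20.6 ± 4.96 CPM (SD, n = 3). On the log2 scale the change was -2.22 ± 0.14 (SE, adjusted p = 2.2e-08). Only 143 of 14926 genes had a lower log2 fold change. Itgb7 was also the least even of the 9 in allograft libraries, with an SD of 24.1% of the mean, yet the highest allograft library stayed far under the lowest isograft one.

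Selplg encodes PSGL-1 and lies on chromosome 5, 113956597 to 113970705. It was at 174, 166 and 159.8 CPM in isograft and at 123, 118 and 135 CPM in allograft libraries. The groups were separate but close. The log2 fold change was -0.41 ± 0.07 (SE, adjusted p = 8.2e-05), and -0.63 when libraries were scaled by total counts alone (adjusted p = 2.3e-07).

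Cd44 lies on chromosome 2, 102641486 to 102732010. Its level was 32.3, 31.3 and 30.0 CPM in the isograft libraries and 151, 165 and 149 CPM in the allograft libraries. These were tight groups with a wide gap. The mean rose 4.97-fold, from 31.2 ± 1.15 to 155 ± 8.73 CPM (SD, n = 3). The log2 fold change was 2.31 ± 0.08 (SE, adjusted p = 8.2e-15), and 214 genes had a larger one. The counts are summed per gene, so the standard and variant forms of CD44 were not told apart.

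**Figure D2:**
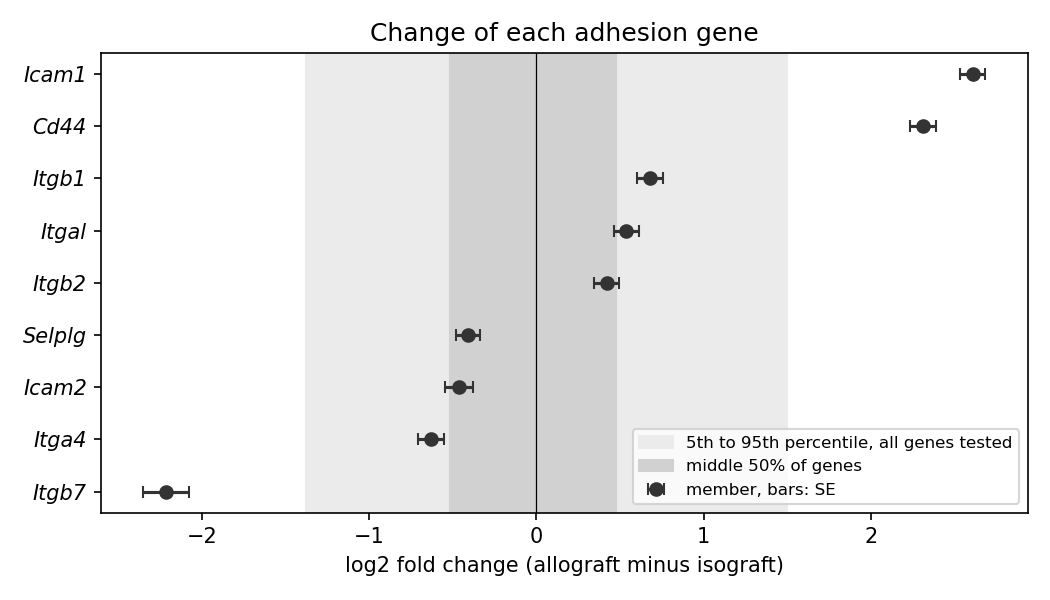
Log2 fold change of each gene (allograft minus isograft, horizontal axis) with bars of 1 SE, over bands for the central part of all 14926 genes tested. Icam1 (2.61), Cd44 (2.31) and Itgb7 (-2.22) lie outside the 5th to 95th percentile band of -1.38 to 1.50, and the other 6 lie inside it.

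To compare levels between genes, CPM was divided by exonic length in kilobases. In isograft libraries Itgb2 had the highest level (46.7 ± 4.03 CPM per kilobase, SD, n = 3), then Icam1 (39.9 ± 1.14), Selplg (38.9 ± 1.63), Itgb7 (34.6 ± 1.67), Icam2 (26.1 ± 1.53), Itgal (23.9 ± 2.21), Itga4 (16.6 ± 0.441), Itgb1 (14.6 ± 0.855) and Cd44 (4.61 ± 0.170). Icam1 and Selplg overlapped in range, as did Icam2 and Itgal, and the other neighbours in this order did not. In allograft libraries Icam1 led at 244 ± 17.8 CPM per kilobase, followed by Itgb2 (62.5 ± 1.23), Itgal (34.7 ± 1.03), Selplg (29.3 ± 2.12), Itgb1 (23.4 ± 1.48), Cd44 (22.9 ± 1.29), Icam2 (18.9 ± 0.788), Itga4 (10.7 ± 1.09) and Itgb7 (7.45 ± 1.79). There Itgb1 and Cd44 overlapped in range, and no other neighbours did. Itgb7 thus stood above Icam2 and 4 further genes in isograft and last in allograft libraries, and Cd44 moved from last to rank 6 of 9. The length counts every annotated exon of a gene, so a gene whose cells use a short transcript is understated by this measure. It includes the 11.7% of Icam1 bases and the 8.04% of Itga4 bases shared with genes on the other strand. How fragments in the shared bases were assigned was not tested.

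Ratios of these per-length levels within a library do not depend on how libraries are scaled, and 5 were tested by an exact two-sided permutation test over libraries, where the smallest p that 3 against 3 libraries allow is 0.1. The ratio of Itgb7 to Itgb1 was 2.22, 2.50 and 2.38 in isograft and 0.318, 0.256 and 0.376 in allograft libraries. Beta 7 transcripts exceeded beta 1 transcripts in every isograft library and were the fewer in every allograft library. The difference in log2 ratio was -2.92 ± 0.17 (SE, exact permutation p = 0.1, adjusted over the 5 ratios 0.125). Itgb7 made up 70.3 ± 1.27% of the sum of both beta chains in isograft and 23.9 ± 3.47% in allograft libraries (SD, n = 3).

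Itga4 against its beta chains changed accordingly. The ratio of Itga4 to Itgb1 was 1.12, 1.23 and 1.05 in isograft and 0.427, 0.486 and 0.458 in allograft libraries (log2 difference -1.31 ± 0.09, exact permutation p = 0.1, adjusted 0.125). The ratio of Itga4 to Itgb7 was 0.506, 0.493 and 0.441 in isograft and 1.34, 1.90 and 1.22 in allograft libraries (log2 difference 1.61 ± 0.20, exact permutation p = 0.1, adjusted 0.125). By this per-length measure Itga4 went from below to above Itgb7, and from above to below Itgb1. Before division by length Itga4 was above both beta chains in both groups. Its means were 231 CPM in isograft and 150 CPM in allograft libraries, against 95.8 and 20.6 CPM for Itgb7 and 59.7 and 95.5 CPM for Itgb1. Which chain is the more abundant therefore depends on the exonic length used, and the difference between groups does not.

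Icam1 against Icam2 gave 1.47, 1.45 and 1.68 in isograft and 12.4, 13.4 and 12.8 in allograft libraries. This was the largest of the 5 log2 differences, 3.07 ± 0.08 (SE, exact permutation p = 0.1, adjusted 0.125), and Icam1 went from 60.4 ± 1.98% to 92.8 ± 0.253% of the sum of the 2 ligands (SD, n = 3). The chains of LFA-1 kept overlapping ratios. Itgal to Itgb2 was 0.459, 0.564 and 0.518 in isograft and 0.537, 0.582 and 0.547 in allograft libraries (log2 difference 0.12 ± 0.09, exact permutation p = 0.3, adjusted 0.3), a difference smaller than the spread of the isograft libraries.

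**Figure D3:**
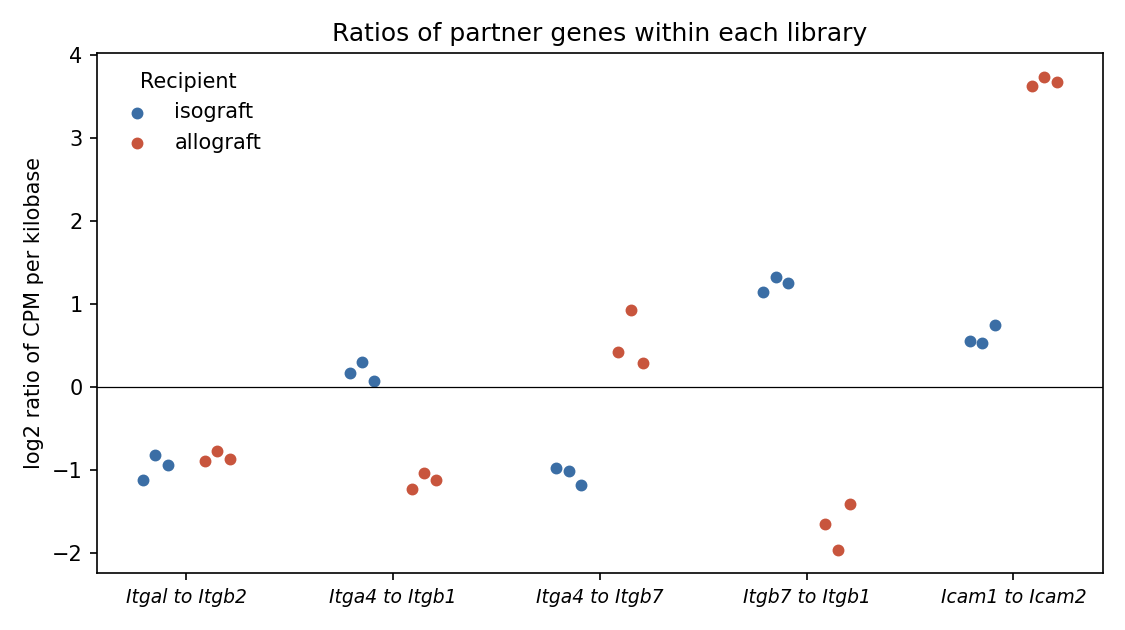
Log2 ratio of per-length levels (vertical axis) of 5 gene pairs in each of the 3 isograft and 3 allograft libraries, with a line where both genes are equal. Itga4 to Itgb1, Itga4 to Itgb7 and Itgb7 to Itgb1 lie on opposite sides of that line in the 2 groups, Icam1 to Icam2 is above it in both, and Itgal to Itgb2 overlaps. For the pairs with Itga4 the side of the line depends on the exonic length used.

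Other alpha chains can use the same beta chains. Itgal made up 85.2% of the summed per-length level of the 3 measured partners of Itgb2 in isograft and 90.1% in allograft libraries. Itga4 made up 56.96% and 53.7% for the 11 measured partners of Itgb1, and 82.4% and 78.5% for the pair of partners of Itgb7, the other being Itgae. The partners of Itgb1 summed to 29.1 ± 0.400 CPM per kilobase against 14.6 ± 0.855 for Itgb1 itself in isograft libraries, and to 20.0 ± 1.38 against 23.4 ± 1.48 in allograft libraries (SD, n = 3). An alpha chain was counted in full for every beta chain it is listed with, so Itga4 enters the sums of both Itgb1 and Itgb7. The sums do not measure how the chains pair.

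Among the other integrin alpha chains, 1 of 14 tested rose, 3 fell and 10 did not pass, where 28.7% of all genes rose and 29.1% fell. The median log2 fold change was -0.16 against -0.01 for all genes tested. Itga6, the alpha 6 chain of laminin-binding integrins, was at 49.7, 49.1 and 55.6 CPM in isograft and at 12.1, 9.66 and 14.4 CPM in allograft libraries (log2 fold change -2.09 ± 0.12, SE). Itga7 and Itga2b, named after their values were seen because few fell, were at 4.21 and 4.19 CPM in isograft and 0.907 and 2.71 CPM in allograft libraries. Itgav, the alpha V chain, rose by 0.35 ± 0.08, a call that ended with total counts (0.13, adjusted p = 0.17). Itgae, which pairs with beta 7, differed by -0.27 ± 0.12 and did not pass (adjusted p = 0.062). Its log2 fold change was -0.49 with total counts, where it passed (adjusted p = 0.0014). It passed as well under the stricter filter of 5 CPM (-0.29, adjusted p = 0.037), and in the fits that left out isograft replicate 1 (-0.34, adjusted p = 0.040) or allograft replicate 3 (-0.39, adjusted p = 0.010). Itgam, a myeloid alpha chain, differed by -0.04 ± 0.12 (adjusted p = 0.80).

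Of 4 other beta chains tested, Itgb8 rose from 0.409 ± 0.254 to 1.05 ± 0.516 CPM (SD, n = 3), a call lost with total counts and without any 1 of isograft replicate 2, allograft replicate 2 or allograft replicate 3. Itgb3 fell by 0.34 on the log2 scale, from 133 ± 6.58 to 104 ± 3.78 CPM. Itgb8 was named after its values were seen.

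Of 34 tested genes that open integrins, restrain their opening or tie them to actin, 16 fell, 7 rose and 11 did not pass. The median was -0.21, and 29.1% of all genes fell and 28.7% rose. Rasgrp2, which loads the integrin-activating GTPase Rap1, went from 93.1 ± 3.41 to 20.7 ± 1.42 CPM (SD, n = 3; log2 fold change -2.17 ± 0.08, SE). Fyb, an adaptor between the T cell receptor and integrins, fell from 861 ± 31.0 to 241 ± 35.3 CPM. Sipa1, which switches Rap1 off, also fell, from 105 ± 0.584 to 45.7 ± 1.24 CPM. Tln1 and Fermt3, talin and kindlin-3, which bind integrin beta tails, had log2 fold changes of -0.78 and -0.45. Named after their values were seen, the 7 that rose were Slc3a2, Rapgef6, Rap1a, Rap1b, Rapgef1, Mob1a and Parvg. Slc3a2 went from 228 ± 31.8 to 643 ± 85.4 CPM and Rapgef6 from 233 ± 8.13 to 372 ± 44.4 CPM (SD, n = 3). Mean Rap1a went from 73.2 to 103 CPM and mean Rap1b from 150 to 188 CPM. With total counts 5 of the 34 rose and 22 fell.

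Of 8 ligands and partners of leukocyte integrins tested, 3 rose, 2 fell and 3 did not pass, where 28.7% of all genes rose and 29.1% fell. Vcam1, the ligand of VLA-4, rose from 2.03 ± 0.643 to 4.32 ± 0.393 CPM, and Spp1, the gene of osteopontin, from 11.7 ± 1.50 to 19.4 ± 1.85 CPM (SD, n = 3). Lgals8, a galectin, went from 83.6 ± 3.35 to 58.7 ± 2.06 CPM and Thbs1, thrombospondin, from 8.79 ± 0.223 to 4.57 ± 0.487 CPM. The third that rose was Icam5, a relative of Icam1, from 0.843 ± 0.251 to 4.40 ± 1.07 CPM, named after its values were seen.

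Selectins and the enzymes that make their ligands moved both ways: 6 of 17 rose, 6 fell and 5 did not pass. Shares over all genes tested were 28.7% up and 29.1% down. The median of the list was -0.23. Tpst1, which adds the sulfate that PSGL-1 needs to bind P-selectin, went from 12.9 ± 0.341 to 23.5 ± 2.60 CPM, and St3gal6, a sialyltransferase of selectin ligands, from 13.6 ± 1.23 to 25.0 ± 0.282 CPM (SD, n = 3). Tpst2, a relative of Tpst1 named after its values were seen, went from 24.0 ± 1.24 to 20.6 ± 1.70 CPM and did not pass (adjusted p = 0.066). Fut7, the fucosyltransferase of those ligands, held 45 counts over all libraries and was not tested. Among the 6 that fell were C1galt1, B4galt1 and Slc35c1, named after their values were seen. C1galt1 went from 62.7 ± 2.80 to 44.1 ± 3.74 CPM and B4galt1 from 48.2 ± 2.22 to 32.9 ± 3.21 CPM. Slc35c1 went from 23.9 ± 1.75 to 14.9 ± 1.89 CPM (SD, n = 3).

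Of 15 genes of hyaluronan synthesis and CD44 partners tested, 8 rose, 3 fell and 4 did not pass, with a median of 0.32. Among all genes tested 28.7% rose and 29.1% fell. With total counts 2 of the 15 rose and 5 fell. Srgn, serglycin, a proteoglycan that CD44 can bind, rose from 191 ± 19.7 to 410 ± 28.6 CPM. Ezr, ezrin, which ties CD44 to actin, rose by 0.28 ± 0.08, but not with total counts (0.06, adjusted p = 0.51), and moesin (Msn) fell by 0.46 on the log2 scale. Hmmr, a hyaluronan-binding protein of dividing cells, fell by 0.67, and the third that fell was Cd74, from 1200.1 ± 145 to 987 ± 89.2 CPM, named after its values were seen.

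**Figure D4:**
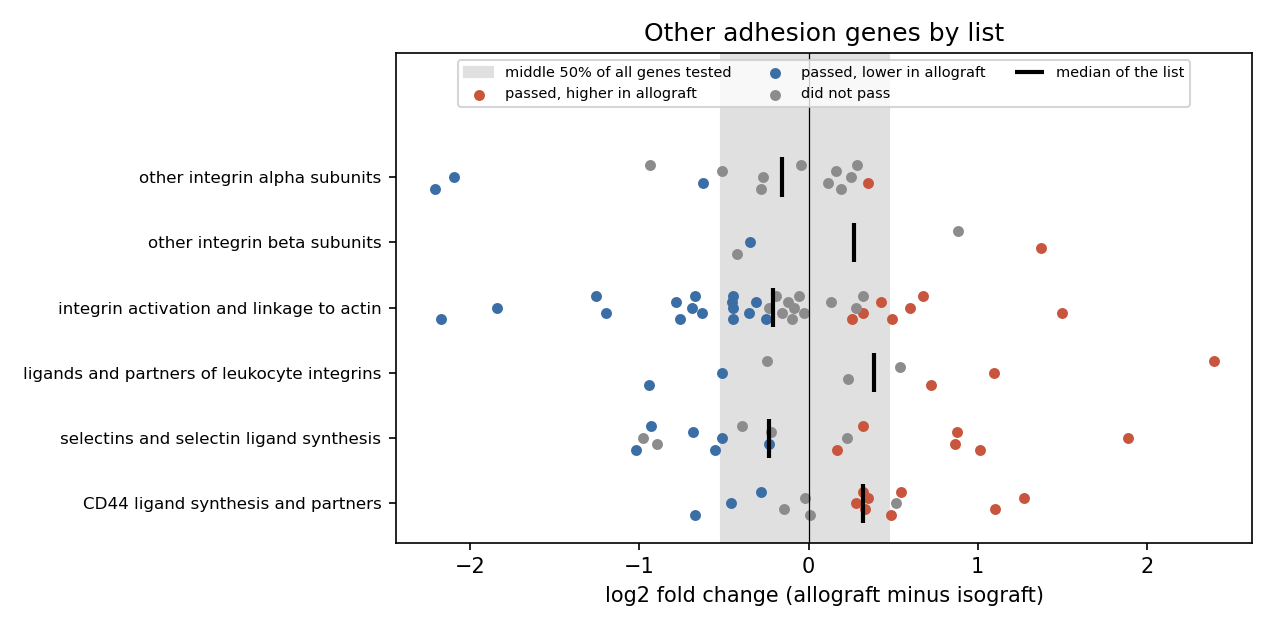
Log2 fold change (horizontal axis) of each tested gene of 6 adhesion lists, coloured by whether it passed the threshold and in which direction, with the median of each list as a black bar and a band for the middle 50% of all genes tested. Of the genes that open integrins, restrain their opening or tie them to actin 16 fell and 7 rose. Of the CD44 partners 8 rose and 3 fell, or 2 rose and 5 fell with total counts. With TMM scaling 28.7% of all genes tested rose and 29.1% fell.

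Summed markers of further cell types moved by less than Icam1, Cd44 and Itgb7. The myeloid list summed to 133 to 144 CPM in isograft and 110.0 to 127 CPM in allograft libraries. Of its 13 genes 1 was up and 3 were down, where 28.7% of all genes rose and 29.1% fell. The neutrophil list summed to 8.61 to 10.5 and 6.54 to 9.21 CPM, the NK cell list to 58.1 to 63.2 and 76.9 to 81.6 CPM (1 of 8 up, Eomes, with means of 13.2 and 36.8 CPM, and 1 down, Gzma, with means of 22.5 and 17.2 CPM), and the plasma cell list to 107 to 117 and 100.4 to 112 CPM. The endothelial and stromal list, mostly Pecam1, summed to 263 to 269 and 129 to 143 CPM, the platelet list, mostly Itgb3, to 131 to 143 and 102 to 111 CPM, and the erythroid list to 0.888 to 1.59 and 1.07 to 1.44 CPM. The dendritic cell list summed to 35.7 to 37.6 CPM in isograft and 79.0 to 86.8 CPM in allograft libraries, with 2 of 6 tested up and 0 down. The sum rose mostly through Zbtb46 (means of 13.6 and 59.0 CPM), and the other that rose was Batf3 (3.60 and 5.87 CPM). Flt3 (11.4 and 11.7 CPM) and Itgax (6.66 and 5.47 CPM) did not pass. Clec9a, Cd209a and Siglech stayed under 1 CPM in every library. ICAM-1 is abundant on dendritic cells, and their part in its rise was not tested.

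The genes whose pattern was most like that of Cd44, by the root mean square difference over 6 libraries of log2 level centred on the isograft mean, were Nolc1 (0.05), Gfi1 (0.05) and Nop58 (0.06) among 9133 genes compared. For Icam1 they were Psat1 (0.04), Cish (0.05) and Irf4 (0.05). Gfi1, a transcriptional repressor of lymphocytes, went from 26.4 ± 1.17 to 127 ± 5.16 CPM, and Irf4, a transcription factor of activated lymphocytes, from 117 ± 3.19 to 704 ± 48.1 CPM (SD, n = 3).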

How the data were processed

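The authors deposited whole-number counts per Ensembl gene with no normalization, from fragments counted over exons with featureCounts 1.6.0 after HISAT alignment, per the file headers. The headers name Ensembl release 104 on GRCm39, and the notes on processing from the submitters give GRCm38 and mm10. For all 9 genes the GRCm38 interval does not overlap the interval in the files, so positions are given as GRCm39. The recorded command sets no strand or multi-mapping option. Symbols matched 52083 of 55416 genes.

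Genes kept by filterByExpr (14926, with 99.92% of counts) were scaled by TMM and tested with edgeR 4.0.16 (glmQLFit, robust) in R 4.3.3, allograft against isograft, with Benjamini-Hochberg adjustment over all genes. Library totals were 30066137 to 37821738 counts. SE is the log2 fold change divided by the root of F. CPM per kilobase uses the exonic length in the files. The permutation test used scipy 1.17.1. The procedure was tested on simulated data. Libraries of a group differed by more than sampling noise (chi-square per degree of freedom 10.3 to 21.9).

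The members and lists were chosen with earlier results of these data known. Genes named beyond the 9 are the 3 of each list with the smallest p past the threshold and at least 5 CPM in the higher group, and the fixed names Vcam1, Itgae, Itgam, Itgav, Itga6, Itgb3, Fut7, Tln1, Fermt3 and Ezr. A further gene that this rule takes is not reported here. Alternatives were RLE scaling, total counts, DESeq2 1.42.0, limma-voom (limma 3.58.1), other filters, a replicate block, each library left out, and immunoglobulin, hemoglobin and mitochondrial genes left out.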

Additional observations from a re-analysis of the deposited data

How the results depend on the processing

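Each of the 9 genes kept its direction and its call in all 14 alternatives (126 of 126 fits), the largest adjusted p being 0.025 for Itgb2 with total counts. With total counts the median log2 fold change of all genes tested was -0.24 rather than -0.01, and 2973 genes rose and 6093 fell, against 4283 and 4349. In that scaling 0 other alpha chains rose and 5 fell, 0 other beta chains rose, 10 genes of the selectin list fell, and 2 CD44 partners rose and 5 fell. With at least 5 CPM in 3 libraries, which tests fewer genes, 0 other beta chains, 1 integrin ligand and 3 selectin list genes rose, and the medians of the other beta chains (-0.37) and of the integrin ligands (-0.53) changed sign. That filter left Itgb3 as the only other beta chain, and Spp1, Thbs1 and Lgals8 as the only integrin ligands. Those medians therefore rest on these genes alone. Leaving out 1 library gave 0 to 1 rises of other beta chains, medians of the other alpha chains from -0.24 to 0.013 (the highest without allograft replicate 3), and Itgam at -0.12 to 0.052, above 0 without isograft replicate 2 or allograft replicate 3. The TMM factors that total counts leave out were 1.07 to 1.10 in isograft and 0.92 to 0.94 in allograft libraries. The cause of that difference in factors, and of the changes on leaving out 1 library, was not tested. The 5 ratios kept their sign in each fit that left out 1 library, Itgb7 to Itgb1 ranging from -3.05 to -2.77 and Itgal to Itgb2 from 0.04 to 0.19.

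The values gave no sign that replicate numbers pair the libraries: deviations from group means correlated at -0.06, 0.00 and -0.03 between same-numbered libraries, and no library correlated best with its own number. They cannot show whether same-numbered libraries were handled together. The replicate block gave 4064 rises and 4152 falls and changed no call among the 9.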

Other observations

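Itgb3, the beta 3 chain, best known as the partner of the platelet chain Itga2b and of Itgav, stood at 22.5 ± 1.11 CPM per kilobase in isograft and 17.7 ± 0.640 in allograft libraries (SD, n = 3), above Itgb1 in the isograft libraries. Its alpha partners summed to 4.76 ± 0.177 and 5.60 ± 0.161 CPM per kilobase, of which Itgav made 83.9% and 91.1%. The platelet genes Ppbp and Gp1bb were listed at 0 in all 6 libraries, and Pf4 and Gp9 stayed under 1 CPM in each. These values were picked out after they were seen.

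Icam1, Icam4 and Icam5 lie side by side on chromosome 9 of GRCm39. Icam4 (20940669 to 20941891) was listed at 0 counts in all 6 libraries. Icam5 (20943369 to 20950332) held 35, 23 and 29 counts in isograft and 123, 163 and 102 counts in allograft libraries, where Icam1 held 5610, 7014 and 5754 and then 32054, 33382 and 28383.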
